A study of Mus musculus with 6 samples.

Results

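The enzymes that break glucose down to pyruvate and lactate, pass pyruvate into the mitochondrion or run the pathway in reverse were followed in whole testes of Hsf5 knockout and control mice at postnatal day 16. The members were 34 named isoenzymes, found by gene symbol in the table of all genes. They were 7 forms known from testis and sperm, 23 forms listed as somatic, with Pgam2 among them, and 4 gluconeogenic enzymes. Of these 34, 32 had a row among the 29333 genes of the table. The testis forms Aldoart1 and Ldhal6b were not analysed here.

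The knockout group was Hsf5-/- testes, and the control group was testes that the labels call wild type and that the design text describes as wild type or Hsf5+/-. The labels give 3 samples per group, of which knockout 1 and knockout 3 and control 1 and control 2 were analysed. They state neither the strain, the structure of the knockout allele, nor whether samples of a group were taken from different animals. The p-values therefore rest on the spread among these samples, which may be technical, and largely on that spread pooled over genes. Total RNA was sequenced, and the values are normalised read counts, that is, reads per gene divided by a size factor for each library.

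Glycolysis turns glucose into pyruvate through a chain of enzymes, and most steps have several isoenzymes encoded by separate genes. Lactate dehydrogenase interconverts pyruvate and lactate, and the pyruvate dehydrogenase complex feeds pyruvate into the citric acid cycle. In the seminiferous tubule, Sertoli cells take up glucose and release lactate, which spermatocytes use as fuel. Germ cells that enter the pachytene stage of meiosis begin to transcribe testis isoenzymes, and several of these, such as Pgk2 and Pdha2, are autosomal retrocopies of X-linked genes that are silenced during that stage.

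Promoters are shown for the members that the results turn on. Fbp1, Pgam2, Pgk2 and Ldhc had the largest falls, and Ldha and Ldhb are the somatic partners of Ldhc. Of the partners, Ldha fell, and Ldhb rose by a small amount whose call depended on single libraries. Each holds 300 bases around the annotated gene start, all but the last 50 of them before it, on the sense strand, from RefSeq on build GRCm38.p6. Capitals mark matches to the motifs TGACGTCA (cyclic AMP response element), GTTGCC (an X-box arm), GGGCGG (GC box) and CCAAT, on either strand. The windows lie at chr13:62888233-62888532 on the minus strand for Fbp1, chr11:5803747-5804046 on the minus strand for Pgam2 and chr17:40208560-40208859 on the minus strand for Pgk2. Those of Ldhc and Ldha lie on the plus strand at chr7:46861013-46861312 and chr7:46845554-46845853, and that of Ldhb on the minus strand at chr6:142507908-142508207.
Fbp1: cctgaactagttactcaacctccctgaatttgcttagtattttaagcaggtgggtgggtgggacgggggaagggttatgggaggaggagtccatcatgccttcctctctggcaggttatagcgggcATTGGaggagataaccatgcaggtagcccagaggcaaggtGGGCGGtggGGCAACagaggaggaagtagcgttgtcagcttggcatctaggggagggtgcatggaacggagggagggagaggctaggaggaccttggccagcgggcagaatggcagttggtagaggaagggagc
Pgam2: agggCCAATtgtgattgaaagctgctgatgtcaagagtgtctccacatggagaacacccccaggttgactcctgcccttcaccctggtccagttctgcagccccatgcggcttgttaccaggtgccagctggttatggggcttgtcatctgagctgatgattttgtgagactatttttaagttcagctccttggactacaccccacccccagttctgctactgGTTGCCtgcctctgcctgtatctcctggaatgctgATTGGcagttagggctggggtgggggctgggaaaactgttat
Pgk2: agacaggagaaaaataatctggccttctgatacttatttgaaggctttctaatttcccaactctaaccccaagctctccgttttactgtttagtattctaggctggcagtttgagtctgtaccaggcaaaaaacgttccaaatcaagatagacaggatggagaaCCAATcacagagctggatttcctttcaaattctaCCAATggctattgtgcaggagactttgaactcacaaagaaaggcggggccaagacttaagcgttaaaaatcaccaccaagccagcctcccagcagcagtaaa
Ldhc: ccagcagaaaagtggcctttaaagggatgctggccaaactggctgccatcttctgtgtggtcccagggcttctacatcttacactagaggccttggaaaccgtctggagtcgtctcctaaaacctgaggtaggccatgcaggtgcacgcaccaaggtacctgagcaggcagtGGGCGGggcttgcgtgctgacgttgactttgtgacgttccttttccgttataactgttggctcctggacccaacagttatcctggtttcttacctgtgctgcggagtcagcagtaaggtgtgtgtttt
Ldha: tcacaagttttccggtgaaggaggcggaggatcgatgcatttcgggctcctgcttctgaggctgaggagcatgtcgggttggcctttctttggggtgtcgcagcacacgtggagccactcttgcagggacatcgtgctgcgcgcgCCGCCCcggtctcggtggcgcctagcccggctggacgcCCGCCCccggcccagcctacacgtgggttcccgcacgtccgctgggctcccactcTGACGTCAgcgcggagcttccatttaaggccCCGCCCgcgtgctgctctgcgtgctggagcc
Ldhb: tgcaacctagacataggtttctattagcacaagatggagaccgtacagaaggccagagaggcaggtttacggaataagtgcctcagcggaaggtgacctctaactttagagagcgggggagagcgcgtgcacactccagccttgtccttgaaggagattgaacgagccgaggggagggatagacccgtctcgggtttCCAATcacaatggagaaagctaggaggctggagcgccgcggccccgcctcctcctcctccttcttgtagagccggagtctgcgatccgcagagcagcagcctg

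Of the 34 members, 33 matched a RefSeq promoter, with the first listed start taken for each gene. Heat shock factors bind inverted repeats of a short element, searched here as GAANNTTC and TTCNNGAA. GAANNTTC was present in 7.95% of all 27025 promoters and in 2 of the 33 members, Pfkl and Fbp2. TTCNNGAA was present in 8.4% of all promoters and in 2 members, Eno2 and Pfkl. Neither string was found in this window of the 11 members that fell. TGACGTCA, held by 1.88% of all promoters, was found in Ldha alone, 12 bases before its start. GTTGCC occurred in 12.7% of all promoters and in 8 members, 3 of which fell: Pgam2, Fbp1 and Eno4. GGGCGG occurred in 35.9% of all promoters, in 15 members and in 6 that fell. CCAAT occurred in 37.9% of all promoters, in 13 members and in 6 that fell, and TATAAA in 14.2% of all promoters and in 3 members, among them Pdha2. These are matches of letters on both strands of a short window, in which motifs may overlap, and not evidence of binding.

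The 4 libraries held between 16209093 and 18557898 recovered reads. Hsf5, the targeted gene, had 1926 and 1602 normalised reads in the knockouts, against 2541 and 3147 in the controls, and its mean was 62.0% of control (log2 fold change -0.69 ± 0.12 SE, limma, Benjamini-Hochberg adjusted p = 0.00716). Without knockout 3 this call was lost (-0.55, adjusted p = 0.0741, limma). Control 2 stood apart from control 1 at many members, and the values below are therefore given for each library. Markers of pachytene and diplotene spermatocytes fell in 8 of 8 genes (limma adjusted p under 0.05), beside 13.5% of all genes tested. Their summed normalised read count was 12498 to 15794 in the knockouts and 40117 to 58814 in the controls. The marker lists were chosen with earlier results of these data known, so the count of 8 is not independent support. In whole testis, fewer cells of a type and less RNA per cell cannot be told apart.

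**Figure D1:**
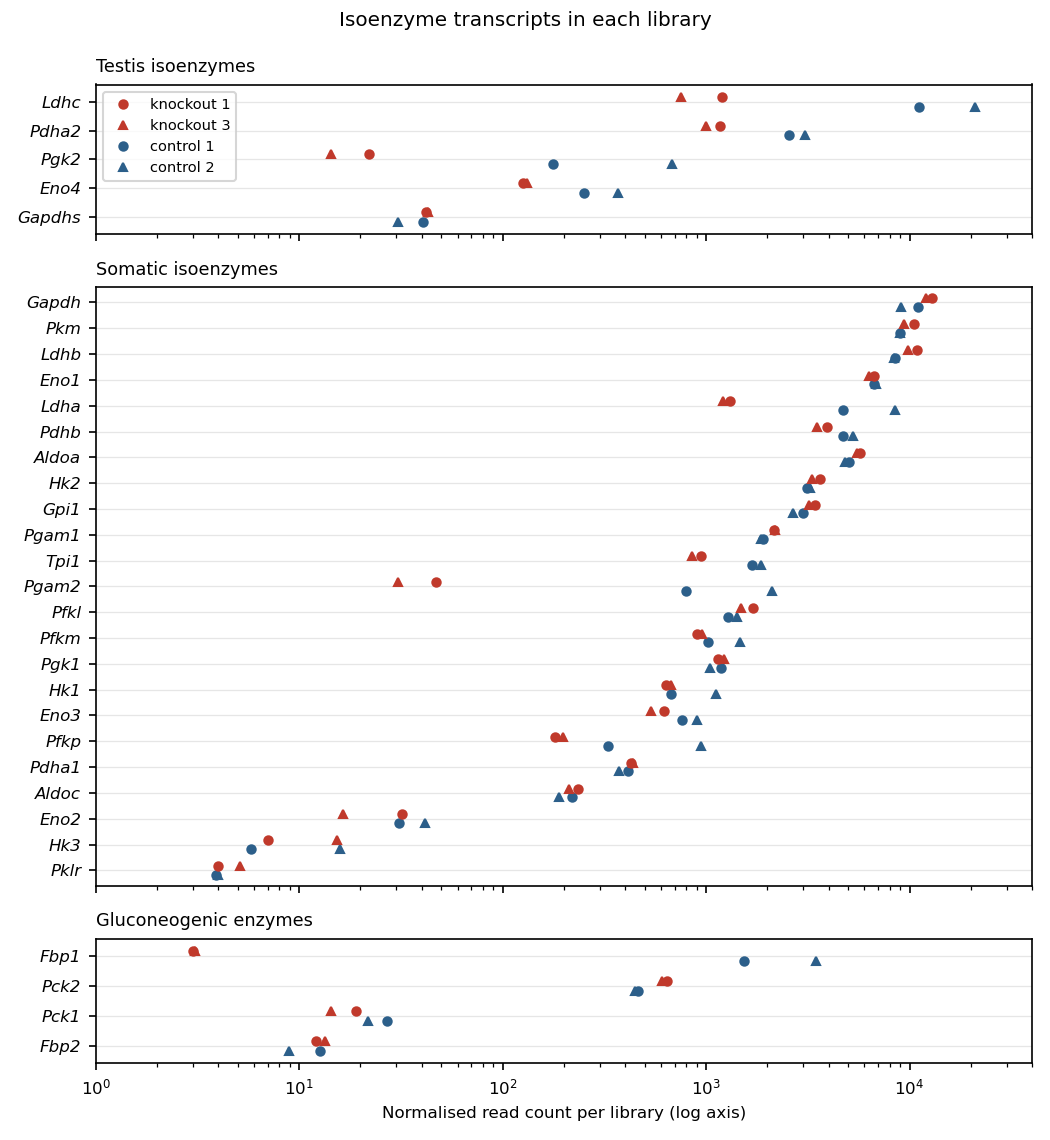
Normalised read count (log axis) of each member in each library, by class, with knockout libraries above control libraries in the legend. Pgk2, Ldhc, Pgam2, Ldha and Fbp1 show the widest gaps, with both knockout libraries far to the left of both controls.

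In the knockouts 11 of the 31 members tested fell (35.5%), beside 13.5% of all 17480 genes tested, and 2 rose (6.45%), beside 3.28% of all genes. A member was tested if its mean over the 4 libraries was at least 10, and was said to fall or rise if its limma adjusted p was under 0.05. The remaining 18 did not pass the test. By edgeR on the recovered reads, 11 members fell and 2 rose (all genes: 12.3% and 2.94%). By DESeq2, which tested 32 members, 10 fell and 2 rose (all genes: 11.3% and 2.26%). The 2 that rose by DESeq2 were Ldhb and Gapdh, while Pck2 did not pass there. Both knockout libraries lay below both controls in 14 members (31.9% of all genes) and above both in 11 (29.8% of all genes). The median log2 fold change over the tested members was -0.06, against 0.01 over all genes tested.

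By class, of the 5 testis isoenzymes with a row, all were tested and 4 fell (80.0%, beside 13.5% of all genes tested). The median log2 fold change of these 5 was -1.38. Of 22 somatic isoenzymes tested, 6 fell (27.3%), 1 rose (4.55%, beside 3.28% of all genes tested) and 15 did not pass. The 6 that fell include Pgam2, which is also found in sperm. The somatic median was 0.09, which became -0.09 with libraries set to equal Sertoli cell marker levels. That scaling moved the median of all genes to -0.18. Of the 4 gluconeogenic enzymes, Fbp1 fell, Pck2 rose and the others did not pass.

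**Figure D2:**
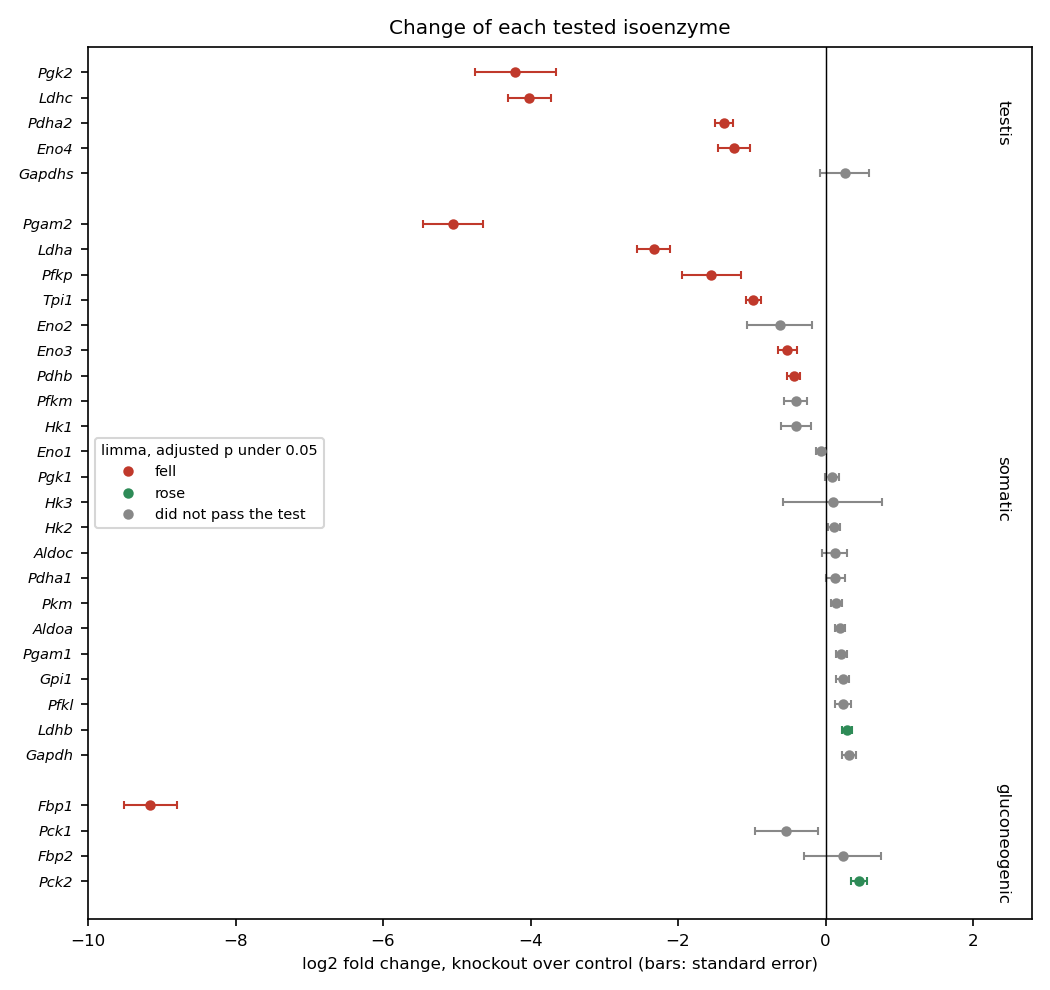
Log2 fold change of each tested member, knockout over control, with bars for the standard error and colours for the limma call at adjusted p under 0.05. Fbp1 (-9.16), Pgam2 (-5.05), Pgk2 (-4.21) and Ldhc (-4.01) lie furthest from 0, and the 2 members that rose, Pck2 (0.46) and Ldhb (0.29), lie close to it.

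Among testis isoenzymes, Ldhc, the lactate dehydrogenase subunit of male germ cells, had 1198 and 750 normalised reads in the knockouts, against 11182 and 21015 in the controls. Both knockouts lay far below both controls. The mean was 974 ± 317 in the knockouts and 16098 ± 6953 in the controls (SD, n = 2 each), or 6.05% of control. The log2 fold change was -4.01 ± 0.29 (SE), with a limma adjusted p of 0.000149.

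Pgk2, the phosphoglycerate kinase of germ cells, had 22.0 and 14.3 normalised reads in the knockouts, against 176 and 677 in the controls. The groups did not overlap, and the controls differed from each other by 1.93 on the log2 scale. The mean of 18.2 ± 5.45 in the knockouts was 4.26% of the 427 ± 354 in the controls (SD, n = 2 each). Its log2 fold change of -4.21 ± 0.55 (SE; limma adjusted p = 0.00146) became -5.17 without control 1 and -3.24 without control 2, still past the threshold.

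Pdha2, the germ cell form of the alpha subunit of pyruvate dehydrogenase, had 1174 and 994 normalised reads in the knockouts, against 2561 and 3071 in the controls. Replicates lay close together within each group. The knockout mean of 1084 ± 127 was 38.5% of the control mean of 2816 ± 361 (SD, n = 2 each; log2 fold change -1.38 ± 0.12 SE, limma adjusted p = 0.000293).

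Eno4, an enolase of the sperm tail, had 126 and 131 normalised reads in the knockouts, against 251 and 371 in the controls. All knockout values were again below all control values. The mean fell to 129 ± 3.43 in the knockouts, against 311 ± 84.7 in the controls (SD, n = 2 each), which is 41.4% of control (log2 fold change -1.24 ± 0.21 SE, limma adjusted p = 0.00546).

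Gapdhs, the sperm glyceraldehyde-3-phosphate dehydrogenase, which is known as a gene of haploid germ cells, was the testis form that did not pass the test. It had 42.1 and 43.0 normalised reads in the knockouts, against 40.7 and 30.7 in the controls (log2 fold change 0.26 ± 0.33 SE, limma adjusted p = 0.647). All 4 libraries were low. Round spermatid markers had a summed normalised read count of 104 to 152 in the knockouts and 141 to 145 in the controls. Most of it was Spaca1, with 143 and 94.2 in the knockouts, against 128 and 129 in the controls. The defining marker Acrv1 was at 0 in control 1 and at most 3.97 elsewhere, and the other defining marker, Tnp1, had no row. Only 1 round spermatid marker, Spaca1, was high enough to be tested, and it did not pass. Whether these markers bear on the Gapdhs result was not tested.

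Among somatic enzymes of the upper pathway, from hexokinase to triosephosphate isomerase, Pfkp and Tpi1 fell and the others did not pass the test. Hexokinases trap glucose in the cell, and of Hk1, Hk2 and Hk3 none passed the test. Hk1 had 638 and 673 normalised reads in the knockouts, against 669 and 1119 in the controls (log2 fold change -0.40, limma adjusted p = 0.236). The knockouts overlapped control 1, and without control 1 the gene was called lower (-0.77, adjusted p = 0.0169, limma), while without control 2 the log2 fold change was -0.03 (adjusted p = 0.926, limma). Hk2, the most abundant hexokinase transcript per kilobase in every library, had 3615 and 3322 in the knockouts, against 3141 and 3256 in the controls. Hk3, known from white blood cells, stayed under 16 normalised reads in all 4 libraries. Gpi1, which converts glucose 6-phosphate to fructose 6-phosphate, had 3428 and 3211 in the knockouts, against 2995 and 2667 in the controls (log2 fold change 0.23, limma adjusted p = 0.103).

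Phosphofructokinase commits sugar to glycolysis, and its 3 subunit genes gave different results. Pfkp, the platelet-type subunit, had 181 and 199 normalised reads in the knockouts, against 328 and 946 in the controls. The groups did not overlap, but control 1 was nearer to the knockouts than to control 2. Its mean of 190 ± 12.3 in the knockouts was 29.8% of the 637 ± 437 in the controls (SD, n = 2 each; log2 fold change -1.55 ± 0.40 SE, limma adjusted p = 0.0316). In limma the adjusted p became 0.0528 with control 2 left out (-0.78), 0.135 with knockout 1 left out and 0.14 with knockout 3 left out, and DESeq2 gave 0.101, so the call was lost in each. With control 1 left out the log2 fold change was -2.31.

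The liver-type subunit Pfkl had 1705 and 1480 normalised reads in the knockouts, against 1279 and 1420 in the controls, and did not pass the test (log2 fold change 0.24, limma adjusted p = 0.16). Pfkm, the muscle-type subunit, had 898 and 959 in the knockouts, against 1024 and 1474 in the controls. It did not pass either (-0.40, limma adjusted p = 0.125), but without control 1 it was called lower (-0.67, adjusted p = 0.0202, limma), while without control 2 the log2 fold change was -0.14 (adjusted p = 0.536, limma).

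Aldolase splits the six-carbon sugar, and Aldoa, its main transcript here, had 5742 and 5530 normalised reads in the knockouts, against 5023 and 4839 in the controls (log2 fold change 0.19, limma adjusted p = 0.0902). Aldoc, the brain-type form, had 234 and 212 in the knockouts, against 219 and 189 in the controls. Neither passed the test. Tpi1, triosephosphate isomerase, is the sole enzyme of its step. It had 940 and 857 normalised reads in the knockouts, against 1681 and 1866 in the controls. All 4 values lay near their group means, and the knockout mean of 899 ± 58.4 was 50.7% of the control mean of 1774 ± 131 (SD, n = 2 each; log2 fold change -0.98 ± 0.10 SE, limma adjusted p = 0.000549).

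Gapdh, the somatic glyceraldehyde-3-phosphate dehydrogenase, had 12923 and 12037 normalised reads in the knockouts, against 11056 and 9046 in the controls. The knockouts lay above both controls, with a log2 fold change of 0.32 that did not pass the test (limma adjusted p = 0.0566). It was called higher by DESeq2 (adjusted p = 0.0218), after scaling by library totals alone (0.0157, limma) or by TMM factors (0.0478, limma), and without control 1 (log2 fold change 0.46, adjusted p = 0.0423, limma), but not without control 2 (0.17, adjusted p = 0.327, limma). Pgk1, the X-linked phosphoglycerate kinase, had 1147 and 1218 in the knockouts, against 1185 and 1042 in the controls (log2 fold change 0.09, limma adjusted p = 0.6). Its values overlapped between groups, unlike those of its germ cell counterpart Pgk2.

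Phosphoglycerate mutase gave the widest contrast between forms of one step that were listed as somatic. Pgam2, known as the muscle form and also found in sperm, had 47.1 and 30.7 normalised reads in the knockouts, against 793 and 2120 in the controls. Both knockouts were far below both controls, which themselves differed by 1.42 on the log2 scale. The mean of 38.9 ± 11.6 in the knockouts was 2.67% of the 1457 ± 938 in the controls (SD, n = 2 each). Its log2 fold change was -5.05 ± 0.41 (SE; limma adjusted p = 0.000234), and it was -5.76 without control 1 and -4.35 without control 2. Pgam1, the general form, had 2168 and 2193 in the knockouts, against 1911 and 1852 in the controls, and did not pass the test (log2 fold change 0.21, limma adjusted p = 0.101).

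Skeletal muscle was checked because Pgam2 and Eno3 are known as muscle isoenzymes. The 5 muscle markers summed to 66.6 to 79.2 normalised reads in the knockouts and 62.5 to 71.7 in the controls, and neither of the 2 that could be tested passed. Most of each sum was Mylpf, with 65.1 and 44.0 in the knockouts, against 59.1 and 37.7 in the controls. Myl1 had 12.0 and 15.4 in the knockouts, against 5.82 and 14.9 in the controls. Ckm was at 0 in both knockouts and under 2 in both controls, and Acta1 was at most 2.05 in any library. Eno3 had 621 and 537 normalised reads in the knockouts, against 763 and 899 in the controls. It was at 69.7% of control (log2 fold change -0.52 ± 0.13 SE, limma adjusted p = 0.0266), a call that was lost when any single library was left out (adjusted p from 0.0512 to 0.21, limma).

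The other enolases and the pyruvate kinases did not pass the test. Eno1, the general enolase, had 6676 and 6302 normalised reads in the knockouts, against 6676 and 6827 in the controls (log2 fold change -0.06, limma adjusted p = 0.605). Eno2, the neuronal form, had 32.1 and 16.4 in the knockouts, against 31.0 and 41.6 in the controls. Pkm, which makes pyruvate in most tissues, had 10503 and 9438 in the knockouts, against 9003 and 8999 in the controls (log2 fold change 0.15, limma adjusted p = 0.21). Pklr, the liver and red cell form, lay between 3.88 and 5.12 in all 4 libraries and was too low to be tested.

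Of the somatic lactate dehydrogenase genes, Ldha fell clearly, and Ldhb rose by a small amount whose call depended on single libraries. Ldha, whose subunit favours the making of lactate, had 1306 and 1209 normalised reads in the knockouts, against 4702 and 8475 in the controls. The knockouts agreed closely and lay below both controls. The mean of 1257 ± 68.6 in the knockouts was 19.1% of the 6588 ± 2667 in the controls (SD, n = 2 each; log2 fold change -2.33 ± 0.22 SE, limma adjusted p = 0.000451). Ldha and Ldhc are neighbours on chromosome 7, on the same strand with 0 protein-coding genes between them in the GENCODE annotation.

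Ldhb, whose subunit favours the use of lactate, had 10847 and 9801 normalised reads in the knockouts, against 8504 and 8362 in the controls. Both knockouts lay above both controls. The mean was 10324 ± 739 in the knockouts and 8433 ± 100 in the controls (SD, n = 2 each), or 122% of control (log2 fold change 0.29 ± 0.07 SE, limma adjusted p = 0.0255). This rise was small, and its call was lost without knockout 1 (adjusted p = 0.172), control 1 (0.127) or control 2 (0.126) in limma, and after scaling to Sertoli cell markers (log2 fold change 0.10, adjusted p = 0.438, limma). Sertoli cell markers summed to 93449 to 99977 normalised reads in the knockouts and 81527 to 85846 in the controls. Of these markers 2 of 8 rose, beside 3.28% of all genes tested, and their part in the rise of Ldhb was not tested.

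At the pyruvate dehydrogenase step, Pdha1, the X-linked alpha subunit, had 427 and 435 normalised reads in the knockouts, against 414 and 373 in the controls (log2 fold change 0.13, limma adjusted p = 0.528). Pdhb, the beta subunit that both alpha subunits pair with, had 3912 and 3509 in the knockouts, against 4709 and 5295 in the controls. It was at 74.2% of control (log2 fold change -0.43 ± 0.09 SE, limma adjusted p = 0.0118), and the call was lost without knockout 3 (0.116) or control 2 (0.0611).

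The gluconeogenic enzymes held the largest fall of all members. Fbp1, fructose-1,6-bisphosphatase of liver and kidney, which removes a phosphate that phosphofructokinase adds, had 3.01 and 3.07 normalised reads in the knockouts, against 1537 and 3461 in the controls. Those knockout values stand for 3 reads in each library, so the gene was near the limit of detection there, while control 2 was again above control 1. Summed over the groups, 6 reads in the knockouts stood against 5075 in the controls, and the normalised level was 0.122% of control (95% exact binomial interval 0.0446% to 0.265%, counting error only). Its log2 fold change on the log2(value + 1) scale was -9.16 ± 0.36 (SE; limma adjusted p = 9.34e-06), and lay between -9.74 and -8.57 when single libraries were left out.

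Its neighbour on chromosome 13, Fbp2, the muscle form, had 12.0 and 13.3 normalised reads in the knockouts, against 12.6 and 8.92 in the controls. It did not pass the test (log2 fold change 0.23, limma adjusted p = 0.804). Hepatocyte markers summed to 26.6 to 38.1 normalised reads in the knockouts and 25.2 to 39.7 in the controls. Most of each sum was Apoa2, with 28.1 and 17.4 in the knockouts, against 17.5 and 24.8 in the controls. Alb was under 10 in every library, and Apoa1 was at 0 in knockout 1 and control 1.

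Phosphoenolpyruvate carboxykinase starts gluconeogenesis from oxaloacetate. Pck2, the mitochondrial form, had 641 and 608 normalised reads in the knockouts, against 464 and 446 in the controls. Both groups were tight and did not overlap, and the mean was 625 ± 23.3 in the knockouts and 455 ± 12.9 in the controls (SD, n = 2 each), or 137% of control (log2 fold change 0.46 ± 0.11 SE, limma adjusted p = 0.0276). The call was lost when any single library was left out (adjusted p from 0.0731 to 0.181, limma), by DESeq2 (0.0579) and after scaling to Sertoli cell markers (0.143, limma). Pck1, the cytosolic form, had 19.0 and 14.3 in the knockouts, against 27.1 and 21.8 in the controls, and did not pass (log2 fold change -0.53, limma adjusted p = 0.45).

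The testis forms were set against their somatic partners within each library, as the log2 ratio of their normalised read counts plus 1, on which the scaling of a library acts only through the added 1. Of 5 pairs, 4 had lower ratios in both knockouts than in both controls, with differences from -4.29 to -1.18. In each of these 4 the testis form was itself among the members that fell. No share over other gene pairs was computed. Ldhc to Ldha was -0.12 and -0.69 in the knockouts, against 1.25 and 1.31 in the controls, below both controls in either knockout although Ldha itself fell. Pgk2 to Pgk1 was -5.64 and -6.31 in the knockouts, against -2.74 and -0.62 in the controls. The ratio of Pdha2 to Pdha1 was 1.46 and 1.19 in the knockouts, against 2.63 and 3.04 in the controls, and that of Eno4 to Eno1 was -5.71 and -5.58 in the knockouts, against -4.73 and -4.20 in the controls. Gapdhs to Gapdh overlapped, with -8.23 and -8.10 in the knockouts, against -8.05 and -8.15 in the controls. With 2 libraries per group a two-sided exact permutation test cannot go below p = 0.333, which the 4 separated pairs reached (0.417 after Benjamini-Hochberg adjustment over 5 pairs), and Gapdhs to Gapdh gave p = 0.667. None of these differences could therefore pass 0.05.

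Levels of the isoenzymes of one step were compared as normalised reads per kilobase of transcript, with lengths from the GENCODE annotation chosen after the values were seen. In lactate dehydrogenase, Ldhc made up 8.80% and 6.26% of the summed level in the knockouts, against 47.1% and 57.8% in the controls. Ldhb made up 83.8% and 85.9% in the knockouts, against 37.6% and 24.2% in the controls, and Ldha 7.45% and 7.82% in the knockouts, against 15.4% and 18.1% in the controls. In controls Ldhc was thus the most abundant of the 3 and in knockouts Ldhb, with either length. The order of Ldhc and Ldha in knockout 3 depended on the length used. With the union of annotated exons, Ldhc made up 9.40% and 6.70% in the knockouts, against 50.9% and 62.8% in the controls, and Ldha 4.89% and 5.16% in the knockouts, against 10.2% and 12.1% in the controls. Pgam2 made up 4.39% and 2.88% of phosphoglycerate mutase in the knockouts, against 46.7% and 70.7% in the controls, where its order with Pgam1 differed between the libraries.

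Pgk2 was the minor phosphoglycerate kinase in all libraries, at 2.11% and 1.30% in the knockouts, against 14.3% and 42.2% in the controls. Pdha2 kept the larger share of the pyruvate dehydrogenase alpha subunit level, at 76.9% and 73.4% in the knockouts, against 88.2% and 90.9% in the controls. Bowtie2 is the only alignment tool named, and how reads across exon junctions were handled is not stated. Shares and sums over genes of unlike exon structure, such as retrocopies and their parent genes, carry that uncertainty. Eno4 made up 1.31% and 1.46% of enolase in the knockouts, against 2.51% and 3.52% in the controls, and with exon union lengths 2.97% and 3.32% in the knockouts, against 5.48% and 7.44% in the controls. Gapdhs was under 1% of glyceraldehyde-3-phosphate dehydrogenase in every library with either length. Pfkp made up 5.38% and 6.16% of phosphofructokinase in the knockouts, against 10.2% and 20.4% in the controls, and with exon union lengths 2.52% and 2.83% in the knockouts, against 4.68% and 9.74% in the controls.

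**Figure D3:**
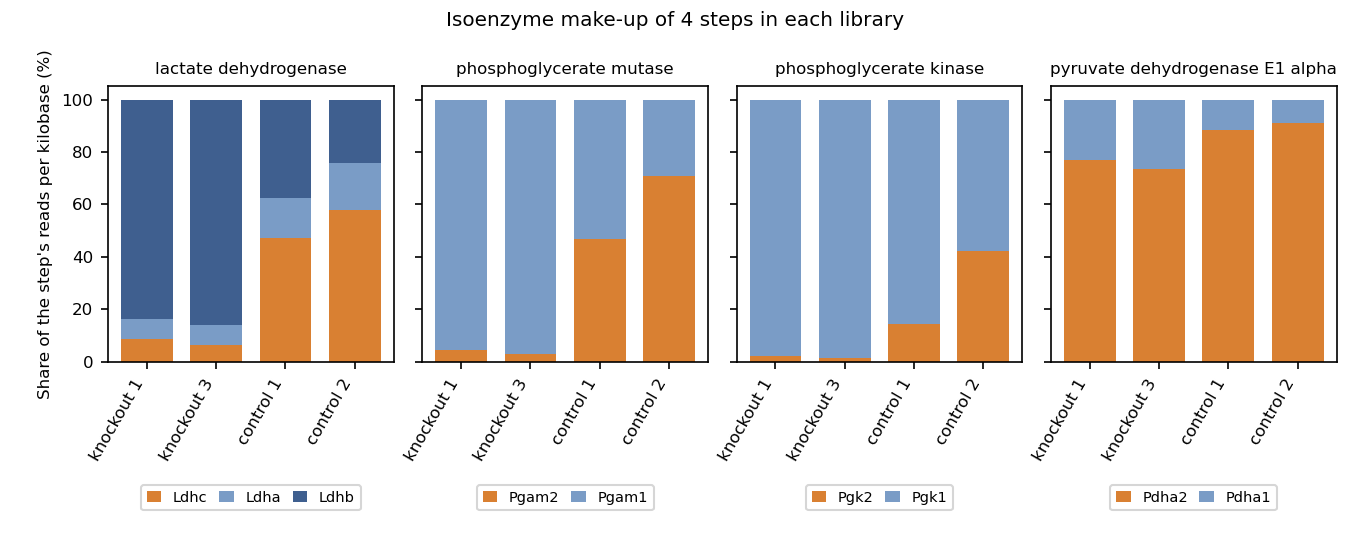
Share of each isoenzyme (%) in the summed normalised reads per kilobase of a step, for 4 steps, with 1 stacked bar per library and the knockouts on the left. Ldhb fills most of the lactate dehydrogenase bar in the knockouts (83.8% and 85.9%) and less in the controls (37.6% and 24.2%).

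Summed over all isoenzymes of a step, the level per kilobase was under 50% of control at 3 steps. Lactate dehydrogenase summed to 9340 ± 837 in the knockouts and 21948 ± 6509 in the controls (SD, n = 2 each), or 42.6% of control. Phosphoglycerate mutase was at 45.6% of control and the alpha subunit of pyruvate dehydrogenase at 45.8%. Phosphoglycerate kinase stood at 75.5%, phosphofructokinase at 83.8% and enolase at 90.8%. Hexokinase (98.4%), pyruvate kinase (111%), aldolase (114%) and glyceraldehyde-3-phosphate dehydrogenase (124%) lay near or above control. No test was run on these sums. With a single library left out, phosphoglycerate mutase lay between 35.7% and 63.1% and lactate dehydrogenase between 35.2% and 53.8% of control, while phosphofructokinase and hexokinase lay on either side of 100% (71.0% to 102% and 90.6% to 108%).

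The rest of the pathway was read from a list of 40 other genes of glucose and pyruvate metabolism, 37 of which had a row and 33 of which were tested. Of these 5 fell (15.2%) and 2 rose (6.06%), near the 13.5% and 3.28% of all genes, and edgeR also called 5 lower and 1 higher. The median log2 fold change was 0.05. The genes that fell included further parts of the pyruvate dehydrogenase complex beside Pdha2 and Pdhb. Dlat, its acetyl-transferring enzyme, had 1702 and 1627 normalised reads in the knockouts, against 2963 and 3123 in the controls. It had the smallest adjusted p of the list (log2 fold change -0.87 ± 0.08 SE, limma adjusted p = 0.000345) and passed with any single library left out.

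Pdhx, the protein that anchors the dihydrolipoamide dehydrogenase Dld in that complex, had 1010 and 921 normalised reads in the knockouts, against 1256 and 1279 in the controls (log2 fold change -0.39, limma adjusted p = 0.0239). Dld itself did not pass (2570 and 2397 in the knockouts, against 2924 and 3020 in the controls, limma adjusted p = 0.0528). Pdk1, a kinase that inactivates the complex, had 2084 and 1954 in the knockouts, against 1673 and 1636 in the controls, and rose (log2 fold change 0.29, limma adjusted p = 0.0467). The calls of Pdhx and Pdk1 were lost in limma when any single library was left out.

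The others that passed have roles beside the main chain. Pfkfb4, which makes and breaks the activator of phosphofructokinase, had 205 and 210 normalised reads in the knockouts, against 311 and 422 in the controls (log2 fold change -0.80, limma adjusted p = 0.0176). G6pc3, a glucose-6-phosphatase, had 938 and 873 in the knockouts, against 1140 and 1362 in the controls (-0.46, limma adjusted p = 0.0252). Bpgm, which makes 2,3-bisphosphoglycerate, had 662 and 688 in the knockouts, against 841 and 967 in the controls (-0.42, limma adjusted p = 0.0353). In these 3 genes the knockouts lay below both controls, and leaving out single libraries lost the call in 3 of 4 cases each. Taldo1, a transaldolase of the pentose phosphate pathway, had 2813 and 2533 in the knockouts, against 2267 and 2046 in the controls, and its rise (log2 fold change 0.31, limma adjusted p = 0.0497) was lost with any single library left out.

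The controls also differed from each other at the members that passed. All 11 members that fell were higher in control 2 than in control 1, as were 92.3% of all 2366 genes that fell and 53.5% of all genes tested. Both members that rose were lower in control 2, as were 76.6% of all 573 genes that rose and 46.5% of all genes tested. The fold change and the difference between the controls use the same control libraries, so these counts do not show a relation between them. The log2 difference of control 2 minus control 1 was 1.93 for Pgk2, 1.53 for Pfkp, 1.42 for Pgam2, 1.17 for Fbp1, 0.91 for Ldhc and 0.85 for Ldha, against 0.26 for Pdha2 and 0.15 for Tpi1. Over the 8 pachytene and diplotene markers, the median of the same difference was 1.32 and the median log2 fold change of knockout over control was -3.96, and their part in the isoenzyme changes was not tested. Spermatogonial markers summed to 11065 to 11198 normalised reads in the knockouts and 8460 to 10172 in the controls, and 2 of 6 rose (3.28% of all genes tested). Early prophase markers summed to 17179 to 21454 in the knockouts and 20230 to 22407 in the controls, and 1 of 6 fell (13.5% of all genes tested). Some other marker lists also differed between control 1 and control 2. Leydig cell markers summed to 3123 and 6067, neutrophil markers to 9.70 and 93.2, and red blood cell markers to 1320 and 1069. In the knockouts these sums were 4347 and 2968, 3.01 and 2.05, and 1619 and 2035 in that order. Of 3 red blood cell markers tested, 2 rose (3.28% of all genes tested). The part of these cells was not tested.

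Of the 11 members that fell and the 2 that rose, 8 kept their call in limma with each of the 4 libraries left out in turn. These were Fbp1, Pgam2, Pgk2, Ldhc, Ldha, Pdha2, Eno4 and Tpi1. The other 5, Pfkp, Eno3, Pdhb, Ldhb and Pck2, lost it at least once. Among all 13, Eno4, Pfkp, Tpi1 and Pck2 share exon bases with a gene on the other strand in the GENCODE annotation (Hspa12a, Pitrm1, Spsb2 and Gm10876 in that order). Whether the counting used strand is not stated, so reads of these overlaps are uncertain.

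**Figure D4:**
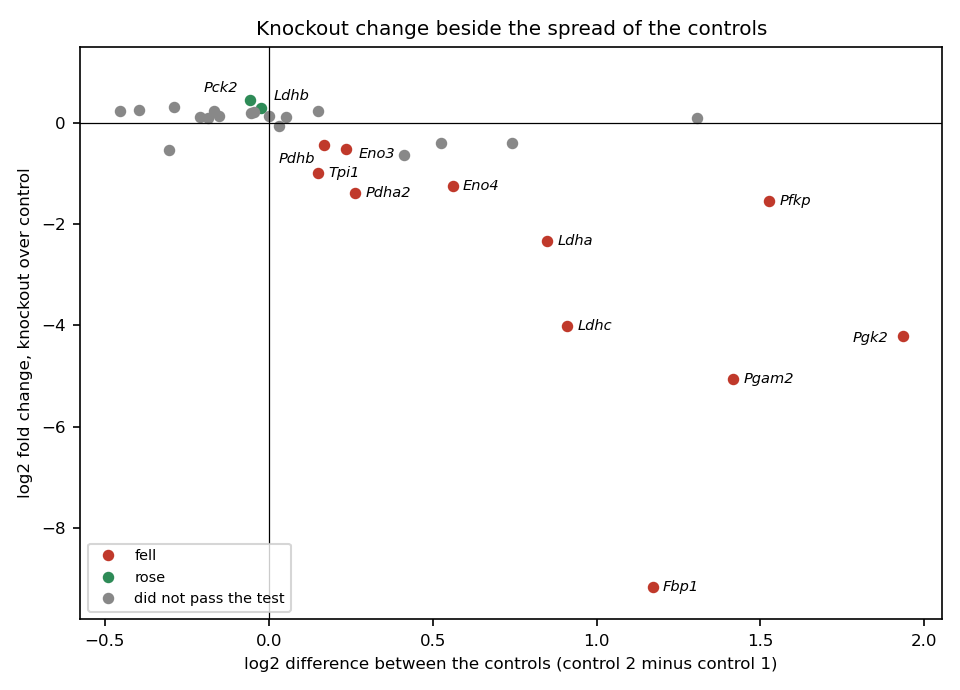
Log2 fold change of knockout over control (vertical axis) against the log2 difference of control 2 minus control 1 (horizontal axis) for each tested member. Members that fell, such as Pgk2 (-4.21 and 1.93) and Pgam2 (-5.05 and 1.42), lie right of 0, and the members that rose lie left of it. The 2 axes share the control libraries.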

How the data were processed

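Whole-testis RNA libraries of 2 knockout and 2 control samples at postnatal day 16 were analysed. Knockout 2 and control 3 were not used here. Tools named in the submitters' processing notes are Bowtie2, cutadapt, DESeq2 and featureCounts, and the build is mm39. Versions, strand setting and annotation are not given in the sources used. The deposited signal of each library is a read count divided by a size factor. This was tested on the values, which were whole multiples of 1 step per library within 1e-06. According to its header, the authors' deposited table also holds a log2 fold change, a test statistic score and a p-value for each gene, which are not printed here.

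The main test was limma 3.58.1 (R 4.3.3) with a trend of variance on mean and no covariate, fitted to log2(value + 1) of 17480 genes with a mean of at least 10, since the table holds normalised values. P-values were Benjamini-Hochberg adjusted over all genes tested and called under 0.05. With 2 residual and 6.3 prior degrees of freedom, they rest largely on variance pooled over genes. On this scale fold changes understate those of low genes. edgeR 4.0.16 and DESeq2 1.42.0 on recovered reads, other scalings, filters and pseudocounts, and each library left out were alternatives. The fit was also run on simulated counts with known folds and a constant dispersion. Its outcome is not given here and does not bear on the spread between these controls. Members, lists and tests were chosen with earlier results of these data known. Every member with a row was named, and of the other pathway genes those that passed. Symbols shared by several rows were read from the row with the highest mean. Lengths are those of the longest principal transcript and, as an added alternative, of the exon union, in GENCODE M21.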

Additional observations from a re-analysis of the deposited data

How the results depend on the processing

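With 2 libraries per group, small changes rest on variance pooled over genes. Of 525 alternative values for single genes, 433 kept their side of the threshold, 80 lost and 12 gained a call, and 0 called values changed sign. No paired analysis was possible because the labels give replicate numbers but no pairing of samples.

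For all genes, limma called 2366 lower and 573 higher, 815 and 37 without a filter, 40 and 0 without a mean-variance trend (1456 higher at an unadjusted p under 0.05), 3987 and 106 with scaling to Sertoli cell markers, and 1513 higher with library totals alone. The share of calls that were lower was 80.5%, 57.02% with totals (median of all genes 0.12) and 97.4% with Sertoli scaling. With single libraries left out, 1086 to 2054 genes were lower and 71 to 308 higher.

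Of the members, 6 were lower without a filter, 1 without a trend and 8 to 12 with single libraries left out. Members higher numbered 8 with totals, 0 to 1 with single libraries left out, and 0 without a filter (6 unadjusted), without a trend (1 unadjusted) and with Sertoli scaling (1 unadjusted), all in limma. Other pathway genes lower numbered 1 without a filter, 3 with totals, 9 with Sertoli scaling, 0 without a trend (5 unadjusted) and 1 to 5 with single libraries left out. Other pathway genes higher numbered 1 with a pseudocount of 0.5, edgeR or DESeq2, 6 with totals, and 0 without a filter (7 unadjusted), with Sertoli scaling (0 unadjusted), without a trend (3 unadjusted) and with any single library left out (2 to 7 unadjusted).

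The testis median was -2.70 with a filter at 50, which drops Gapdhs, -1.57 with Sertoli scaling and -1.52 to -1.24 with single libraries left out. The somatic median was 0.20 with totals, -0.094 with Sertoli scaling and -0.0037 to 0.056 with single libraries left out. Hsf5 (-0.69) did not pass without a filter (adjusted p = 0.0901) or a trend (0.145) in limma, and ranged from -0.84 to -0.53 with single libraries left out. The Gapdhs to Gapdh difference ranged from -0.13 to 0.0074, turning sign without knockout 1. Except where the text gives a reason, the cause was not tested. Shares within a step with exon union lengths are given in the text for Eno4, Pfkp, Ldhc and Ldha. Step sums with exon union lengths stayed close, with enolase at 85.6% of control as the only sum that moved by more than the replicate spread.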

Other observations

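Beside the members, the table held a second gene model named Aldoa, with 53.1 and 40.0 normalised reads in the knockouts, against 54.3 and 81.3 in the controls (log2 fold change -0.52, limma adjusted p = 0.322).

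Named copies of members were low. Pgam1-ps2 had 15.0 and 27.7 normalised reads in the knockouts, against 9.70 and 1.98 in the controls (limma adjusted p = 0.116). Ldhb-ps had 16.0 and 12.3 in the knockouts, against 7.76 and 8.92 in the controls (limma adjusted p = 0.427), and Ldha-ps2 had 4.01 and 1.02 in the knockouts, against 6.79 and 10.9 in the controls. How reads shared between a gene and its copies were counted is not stated, so values of Ldha, Ldhb and Pgam1 carry that uncertainty.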
